A study of Mus musculus with 9 samples.

Results

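Round spermatids (RS) contained transcripts of 74 genes of the Rnf series, named for the RING finger of their proteins, at a level that could be tested. A gene was taken into the series when its symbol began with Rnf and a digit. The pattern matched 86 of the 55414 gene names listed, and 82 were left without Rnf2, Rnf8, Rnf168 and a name marked -ps. Of these, 8 had fewer than 10 counts summed over the 9 libraries and were not tested, namely Rnf186 with 0 summed counts, Rnf224 with 1, Rnf113a1 with 2, Rnf7l and Rnf135 with 3 each, Rnf207 and Rnf217 with 7 each and Rnf39 with 9. The 74 members were tested among 25128 genes in all. The symbol denotes the RING finger and not a measured ligase activity.

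RS had been sorted by flow cytometry from testes of adult males carrying Stra8-iCre and a CAG-tdTomato reporter on the C57Bl/6 background, which the sample labels give as WT. The Stra8 promoter drives Cre in germ cells, and the sort used the decline of red fluorescence along germ cell development. Treatment lasted 24 h. One group received vehicle only (DMSO at 0.15%), the next received oxamate at 24 mM, and the last received oxamate at 24 mM together with octyl-L-2HG at 0.3 mM, all in the same share of DMSO. Oxamate blocks lactate dehydrogenases and lowers L-2-hydroxyglutarate (L-2HG), and octyl-L-2HG is an ester of L-2HG that enters cells. Each group had 3 libraries of polyA RNA, and the numbers 1 to 3 denote vehicle, 4 to 6 oxamate alone and 7 to 9 both compounds. None of the 9 had octyl-L-2HG without oxamate. The labels do not say that the libraries of a group came from separate cultures or animals, so the p-values measure the spread between these libraries, which may be technical. The question was which transcripts change when L-2HG is lowered and when it is supplied again.

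Ubiquitin is passed from an activating enzyme (E1) to a conjugating enzyme (E2) and from there to a target protein. Most RING finger proteins are ligases (E3) that hold the charged E2 beside the target and so choose which protein is marked. RBR (RING-between-RING) ligases take the ubiquitin over themselves before passing it on. In spermatids the ubiquitin system takes part in the remodelling of chromatin and in the removal of proteins that the sperm does not keep, and several genes of the series are transcribed mainly in male germ cells.

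The sequences around the transcription start are shown for Rnf166, which had the largest called change, and for the 3 germ cell members that were lower with both compounds. The windows below run from 250 bases before to 50 bases after the start in RefSeq (GRCm38.p6) and are shown 5′ to 3′ on the strand of the gene. They are those of Rnf166 at chr8:122476025-122476324, Rnf151 at chr17:24718008-24718307, Rnf133 at chr6:23650256-23650555 and Rnf148 at chr6:23655087-23655386, all on the minus strand. Rnf166 rose in all 3 comparisons, and the other members, genes of spermatids, were lowest with both compounds. Capitals mark TGACG, the core of the cAMP response element, TGATGTCA, a variant of the full element, and CCAAT, each on either strand.
Rnf166: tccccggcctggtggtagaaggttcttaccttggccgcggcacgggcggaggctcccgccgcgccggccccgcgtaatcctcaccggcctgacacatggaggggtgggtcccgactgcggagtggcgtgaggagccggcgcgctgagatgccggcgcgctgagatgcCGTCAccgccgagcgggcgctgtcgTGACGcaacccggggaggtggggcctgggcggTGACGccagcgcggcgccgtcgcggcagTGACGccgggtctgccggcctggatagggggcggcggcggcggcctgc
Rnf151: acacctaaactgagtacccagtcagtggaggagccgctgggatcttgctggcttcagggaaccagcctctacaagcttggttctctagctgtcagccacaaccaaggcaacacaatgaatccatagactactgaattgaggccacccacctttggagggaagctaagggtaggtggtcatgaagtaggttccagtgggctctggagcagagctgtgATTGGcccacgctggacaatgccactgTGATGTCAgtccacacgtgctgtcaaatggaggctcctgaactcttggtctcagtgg
Rnf133: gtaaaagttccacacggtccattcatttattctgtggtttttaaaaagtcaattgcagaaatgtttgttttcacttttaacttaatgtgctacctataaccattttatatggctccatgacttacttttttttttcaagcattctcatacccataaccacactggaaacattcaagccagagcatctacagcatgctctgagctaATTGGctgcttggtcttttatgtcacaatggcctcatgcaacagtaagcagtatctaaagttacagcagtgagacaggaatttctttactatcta
Rnf148: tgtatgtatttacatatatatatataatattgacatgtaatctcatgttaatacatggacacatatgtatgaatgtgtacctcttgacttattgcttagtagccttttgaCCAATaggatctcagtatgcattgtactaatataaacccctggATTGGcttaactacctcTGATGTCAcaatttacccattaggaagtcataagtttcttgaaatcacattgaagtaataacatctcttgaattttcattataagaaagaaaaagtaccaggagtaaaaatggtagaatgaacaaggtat
The Rnf166 window, rich in G and C, held 4 copies of TGACG and none of the other motifs, and a second annotated start of this gene held none of them. The windows of Rnf151 and Rnf148 each held 1 copy of TGATGTCA downstream of a CCAAT match, and the Rnf133 window held 1 CCAAT match. These motifs were chosen after the values and the sequences had been seen. RefSeq windows were found for 57 of the 74 members, 75 windows in all. TGACG was in 28% of them and in 20.81% of all 32851 windows, TGATGTCA in 5.333% and 3.619%, and CCAAT in 38.67% and 37.41%. A match describes the letters of a window and was not tested as a binding site. Rnf133 and Rnf148 are neighbours and both lie within the span of Cadps2.

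The libraries held between 32339533 and 39888396 counted reads, and the members together took between 7683 and 7980 CPM (counts scaled to a common library total). Within each group the libraries differed by more than sampling noise, and oxamate library 4 lay apart from oxamate libraries 5 and 6. To a lesser degree, vehicle library 1 lay apart from vehicle libraries 2 and 3. All 10 markers of round and elongating spermatids were tested, and their sum was 1847 to 1899 CPM with vehicle, 1671 to 1766 with oxamate and 1590 to 1597 with both compounds. Over the 9 libraries, spermatocyte markers summed to 254 to 339 CPM, spermatogonial markers to 7.35 to 8.44, macrophage markers to 2.54 to 3.47, Sertoli cell markers to 0.866 to 1.51 and Leydig cell markers to 0.555 to 1.09. The 4 markers of peritubular myoid and endothelial cells summed to 12.8 to 14.0 CPM with vehicle, 11.8 to 11.9 with oxamate and 8.68 to 9.91 with both compounds. In bulk RNA, fewer cells of a type and less RNA per cell cannot be told apart.

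Members of the series ranged over several orders of abundance in RS. Averaged over the 9 libraries, 54 of the 74 members reached 100 normalized counts and 20 did not. In vehicle, per kb of merged exon length, the highest level was that of Rnf126, which works in the quality control of misplaced membrane proteins, at 10663 ± 561 normalized counts per kb (SD, n = 3). Rnf19b and Rnf19a, RBR ligases, had 10522 ± 639 and 7062 ± 295 per kb. Rnf151, a gene of spermatids whose protein is linked to the acrosome, had 8565 ± 1029.8, and Rnf139, an ER membrane ligase of sterol regulation, 5469 ± 214. Rnf126 and Rnf19b did not differ beyond their spread, while Rnf139 lay below the other 4. Of these 5 genes only Rnf151 passed the threshold in any comparison. The next level was that of Rnf187, at 2944 per kb.

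**Figure D1:**
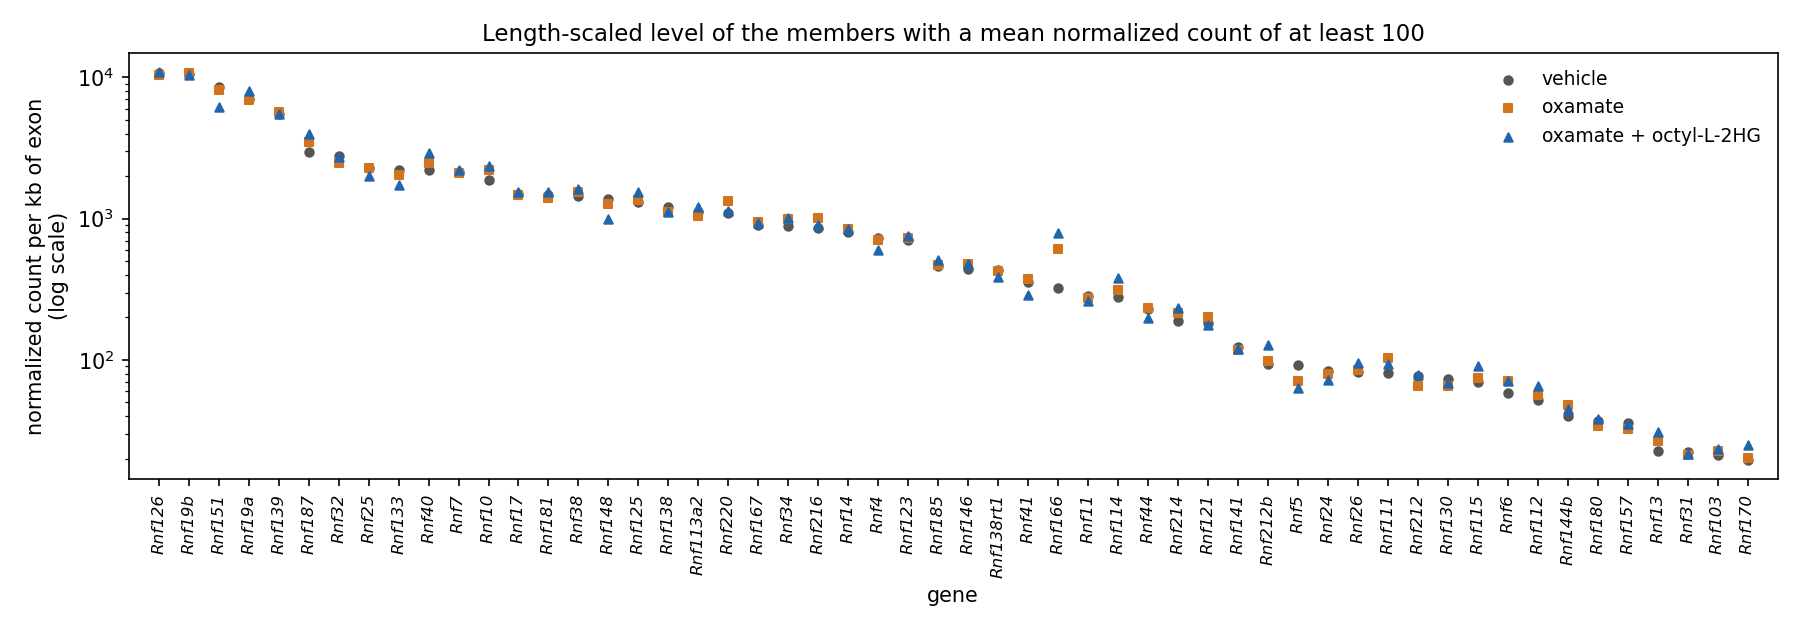
Level of the 54 members that averaged 100 or more normalized counts, as group means per kb of merged exon length (log scale), with vehicle as circles, oxamate as squares and both compounds as triangles. Genes are ordered by the vehicle level, from Rnf126 at 10663 to Rnf170 at 19.6 per kb, and the widest gap between symbols is that of Rnf166.

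Oxamate against vehicle was compared first. Of the 74 members, 6 were higher with oxamate and none was lower, which is 8.11% of the members. A call required an adjusted p under 0.05 in the quasi-likelihood test of edgeR. Among all genes tested 5.19% were called, 3.97% higher and 1.22% lower. At an unadjusted p under 0.05, 15 members were higher and 3 lower. These were 18 of the 74 members, where 4348 of all 25128 genes passed, and the directions of the latter were not counted. The 6 genes were Rnf166, Rnf43, Rnf111, Rnf220, Rnf216 and Rnf10. The median log2 fold change was 0.06 over the members and -0.01 over all genes tested. The count was 3 without vehicle library 1, 2 without vehicle library 2 and 2 without oxamate library 5. With only the 2 groups in the fit it was 2, and DESeq2 called 7 members. Shares of all genes were not counted for these alternative fits, here or below.

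Addition of octyl-L-2HG to oxamate, against oxamate alone, raised 1 member, Rnf166, and lowered 7, Rnf151, Rnf41, Rnf148, Rnf220, Rnf133, Rnf4 and Rnf44. These 8 are 10.8% of the members, where 11.2% of all genes were called, 3.18% higher and 8.06% lower. The median log2 fold change was -0.01 over the members and -0.04 over all genes. Scaling by DESeq2's size factors in place of TMM gave 4 higher and 6 lower members, and total counts gave 1 and 10. The count of 8 rose to 15 without oxamate library 4, with 7 higher and 8 lower, and was 5 without oxamate library 5, 4 without octyl-L-2HG library 8 and 5 without octyl-L-2HG library 9.

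Both compounds against vehicle gave the most calls, 17 members or 23.0%, of which 11 were higher and 6 lower. Among all genes 18.0% were called, 7.48% higher and 10.6% lower. The median log2 fold change was 0.05 over the members and -0.05 over all genes. With total counts as the scaling the split was 7 higher and 12 lower, so the balance of directions depended on the scaling. Without oxamate library 4 the count was 28, and the share of all genes called in that fit was not counted. In the test for any difference among the 3 groups 18 members passed, which is 24.3%, where 19.8% of all genes did. The share of called members was thus near that of all genes in these comparisons. Where the average over the 9 libraries reached 100 normalized counts it was 5, 8 and 16 of 54 members for the 3 comparisons in this order, or 9.26%, 14.8% and 29.6%, and 9.67%, 19.8% and 29.5% of all such genes. In at least 1 pairwise comparison 21 members were called, and the other 53 were called in none. The number of all genes called in at least 1 pairwise comparison was not counted, so the 21 have no share beside them. The 3 comparisons share libraries and are given side by side only.

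**Figure D2:**
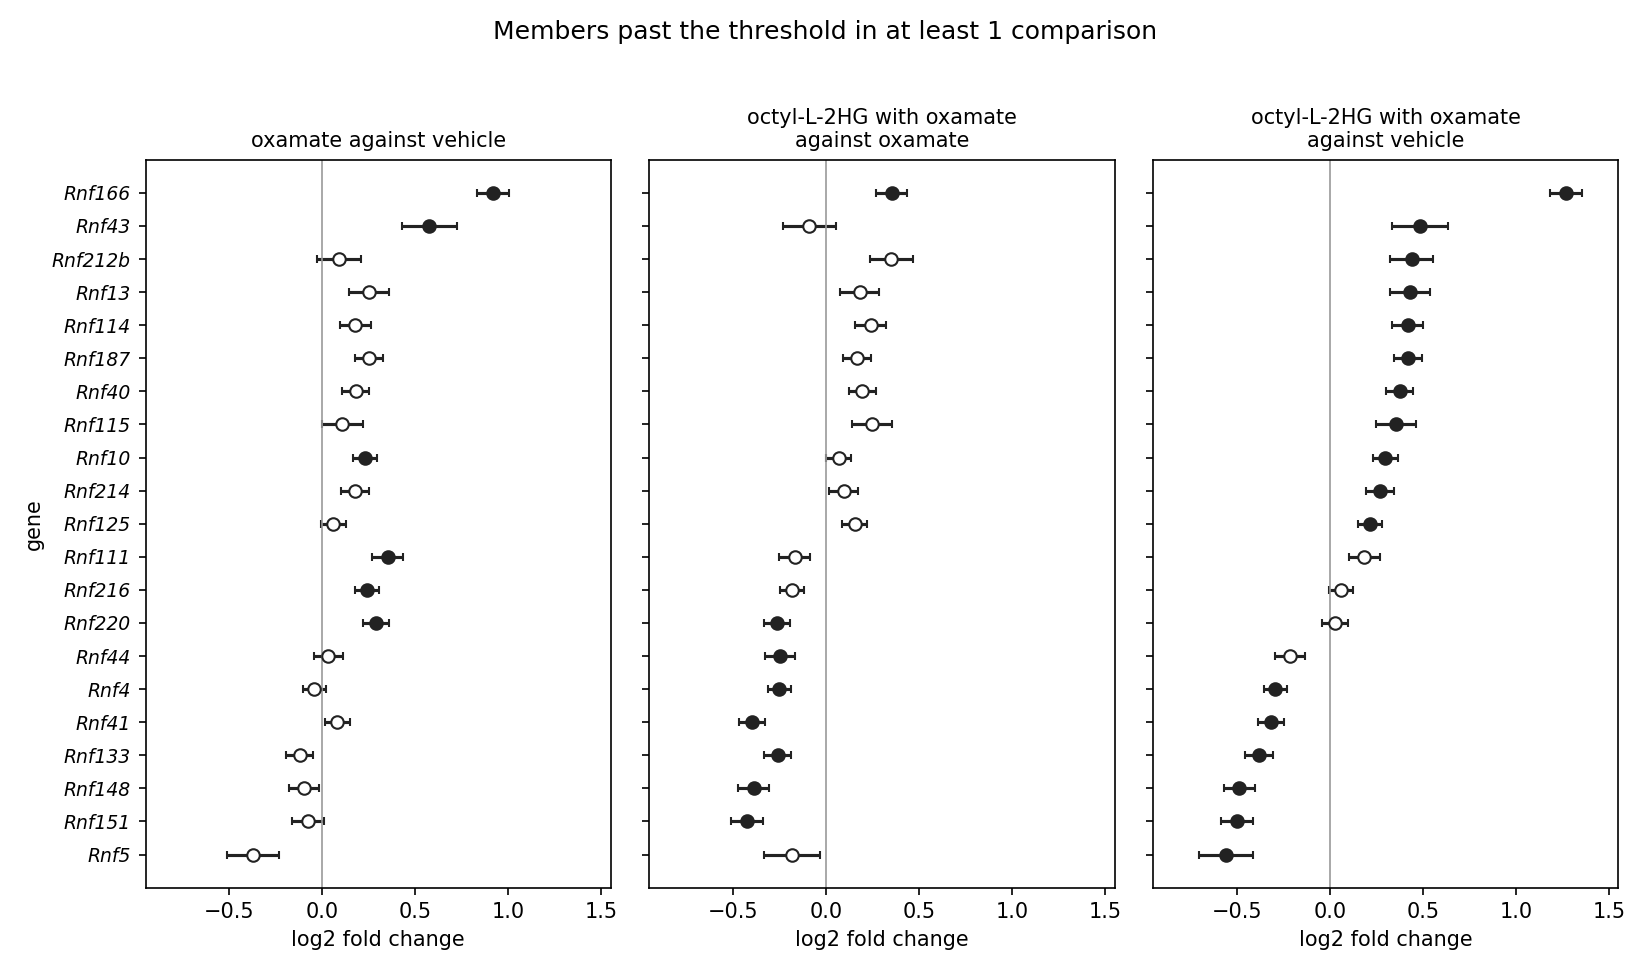
Log2 fold change of the 21 members called in at least 1 pairwise comparison, with a panel for each comparison. Points are the edgeR estimates, bars their SE, and filled points passed an adjusted p of 0.05. Rnf166 lies farthest right in the panels against vehicle, at 0.92 and 1.27, and Rnf151, Rnf148 and Rnf133 are among the 7 filled points left of 0 in the middle panel.

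Rnf166 showed the largest change among the members called. It belongs to a small family, with Rnf114, Rnf125 and Rnf138, whose proteins join a RING finger to C2HC zinc fingers and a ubiquitin-interacting motif. RNF166 acts in the autophagy of bacteria and in antiviral signalling. Its normalized counts were 688, 595 and 640.1 with vehicle, 1366, 1138 and 1113 with oxamate and 1562, 1605 and 1542 with both compounds. All oxamate libraries lay above all vehicle libraries, and all libraries with both compounds above all oxamate libraries. Such separation was frequent with 3 libraries per group. Of all 25128 genes, 2865 lay wholly above and 2499 wholly below vehicle with oxamate. With octyl-L-2HG these numbers were 3379 and 3850 against oxamate, and 4529 and 4639 against vehicle. The log2 fold change was 0.92 ± 0.09 (SE) for oxamate against vehicle (edgeR adjusted p = 9.02e-07), which is 1.89-fold. With octyl-L-2HG it rose by a further 0.35 ± 0.08 against oxamate (edgeR adjusted p = 0.00813), and both compounds against vehicle gave 1.27 ± 0.09 (edgeR adjusted p = 6.05e-09), which is 2.41-fold. Without oxamate library 5 the adjusted p of the second step was 0.0594. All 3 calls held in each of the other alternative fits. The exons of Rnf166 overlap those of no other gene in the annotation used for lengths.

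Of the other genes of this family, Rnf114 and Rnf125 were called only against vehicle. With Rnf166 this makes 25%, 25% and 75% of a list of only 4 genes called in the 3 comparisons. Among all genes 5.19%, 11.2% and 18.0% were called, and 9.67%, 19.8% and 29.5% of those averaging 100 or more normalized counts. Rnf114, whose protein acts in T-cell and interferon signalling, had normalized counts of 971, 903 and 930.5 with vehicle, 1199, 1000.0 and 959 with oxamate and 1316, 1265 and 1223 with both compounds. Its libraries with both compounds lay above all others. The log2 fold change against vehicle was 0.42 ± 0.08 (edgeR adjusted p = 0.00115), and the steps were 0.18 ± 0.08 (edgeR adjusted p = 0.282) and 0.24 ± 0.08 (edgeR adjusted p = 0.0697). Rnf125, a ligase that limits RIG-I signalling, was at 2184 ± 25.2, 2271 ± 137 and 2572 ± 50.1 normalized counts (SD, n = 3) and 0.21 ± 0.07 against vehicle (edgeR adjusted p = 0.0277), a call that was lost without any 1 of the 6 vehicle or octyl-L-2HG libraries and with total counts as the scaling (0.133). Rnf138, which promotes resection of DNA breaks, did not pass in any comparison. Its log2 fold changes were -0.12, -0.02 and -0.14 for oxamate against vehicle, octyl-L-2HG with oxamate against oxamate, and both compounds against vehicle. Reads of Rnf138 and of its retrogene Rnf138rt1 may have been split or dropped in counting, so both values are uncertain.

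**Figure D3:**
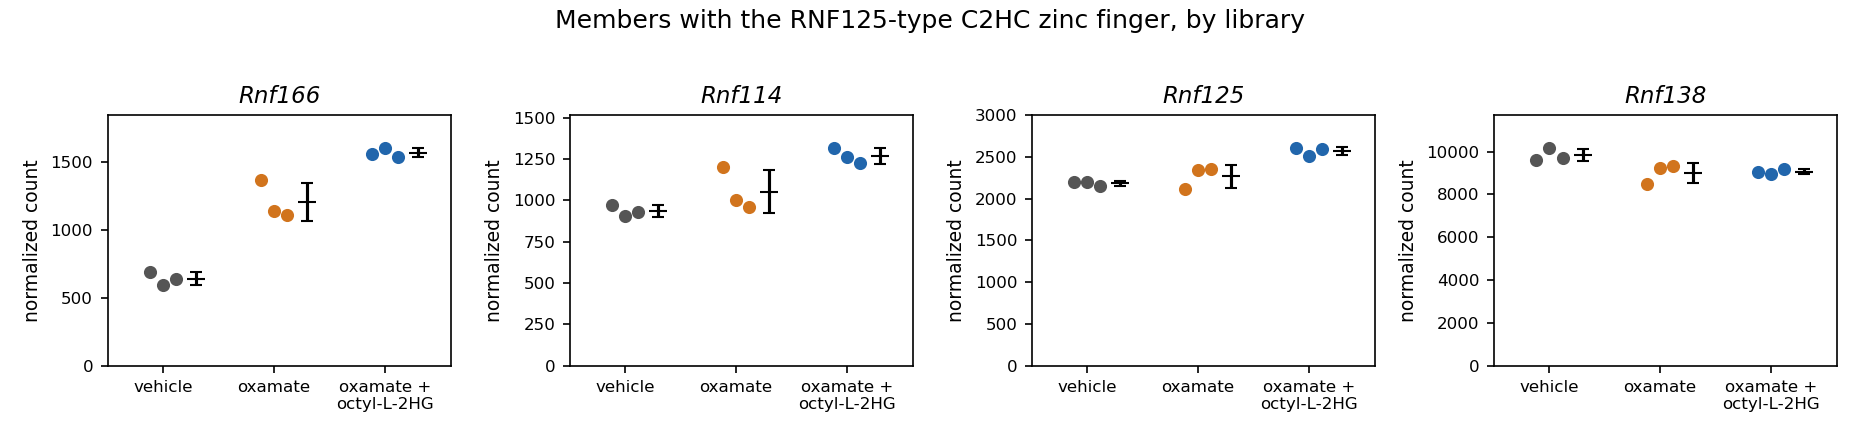
Normalized counts of Rnf166, Rnf114, Rnf125 and Rnf138 in each of the 9 libraries, with points for libraries and the bar beside them for mean and SD of the 3 libraries. The Rnf166 points form 3 separate levels, with means of 641, 1205 and 1569.5.

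The germ cell and testis members were described as a group of 10, all of them tested. None was called with oxamate against vehicle. With octyl-L-2HG against oxamate 3 were lower and none higher, and against vehicle 3 were lower and 1 higher. These are 30% and 40% of the list, where 11.2% and 18.0% of all genes were called, and for oxamate against vehicle 5.19% of all genes were. Among all genes averaging 100 or more normalized counts, 9.67%, 19.8% and 29.5% were called in the 3 comparisons. The median log2 fold changes of the group were -0.08, 0.02 and -0.05, and those of all genes -0.01, -0.04 and -0.05. The lower members were the same in both comparisons, Rnf151, Rnf148 and Rnf133.

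Rnf151 had normalized counts of 11656, 9539.9 and 9509.7 with vehicle, 10917, 9364 and 8723 with oxamate and 7051, 7416 and 7544 with both compounds. Vehicle and oxamate libraries overlapped, and every library with both compounds lay below them. The log2 fold change was -0.08 ± 0.09 for oxamate (edgeR adjusted p = 0.717), -0.42 ± 0.09 for octyl-L-2HG against oxamate (edgeR adjusted p = 0.00251) and -0.50 ± 0.09 against vehicle (edgeR adjusted p = 0.000249). Rnf148 and Rnf133 encode transmembrane ligases with a protease-associated domain, and loss of RNF133 impairs sperm function in mice. Rnf148 was at 1709, 1749 and 1637 with vehicle, 1378, 1759 and 1611 with oxamate and 1214, 1175 and 1297 with both compounds. Rnf133 was at 3064, 3293 and 3204 with vehicle, 2567, 3015 and 3184 with oxamate and 2420.1, 2544 and 2478 with both compounds. In both genes the octyl-L-2HG libraries lay below all others, and oxamate library 4 was the lowest of its group. With octyl-L-2HG against oxamate Rnf148 fell by 0.39 ± 0.08 (edgeR adjusted p = 0.00369) and Rnf133 by 0.26 ± 0.07 on the log2 scale (edgeR adjusted p = 0.026). Against vehicle the log2 fold changes were -0.49 ± 0.08 (edgeR adjusted p = 0.000224) and -0.38 ± 0.07 (edgeR adjusted p = 0.000831). The call of Rnf133 against oxamate was lost without oxamate library 5 (0.119), oxamate library 6 (0.131), octyl-L-2HG library 7 (0.121), octyl-L-2HG library 8 (0.0796) or octyl-L-2HG library 9 (0.0821), and with no filter on low counts (0.0528) or only the 2 groups in the fit (0.0676), with the adjusted p in parentheses. The calls of Rnf151 and Rnf148 were kept without any single library.

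Markers of round and elongating spermatids moved in the same libraries. Of the 10 markers, 4 were lower with oxamate and none higher, 6 were lower with octyl-L-2HG against oxamate, and against vehicle 6 were lower and 2 higher. These are 40%, 60% and 80% of the markers, beside 5.19%, 11.2% and 18.0% of all genes. Tnp2, which encodes a transition protein of the spermatid nucleus, was at 8154 ± 558, 6511 ± 195 and 4919 ± 328 normalized counts with vehicle, oxamate and both compounds. Acrv1, an acrosomal gene, was at 9015 ± 479, 9325 ± 369 and 10854 ± 541. Spermatocyte markers summed to 269 to 339, 254 to 291 and 290 to 303 CPM in these groups. Of these 8 markers 1 was called, higher with octyl-L-2HG against oxamate, or 12.5% beside 11.2% of all genes. In the other comparisons none was called. Of the 4 myoid and endothelial markers only Vwf, an endothelial gene, was called, lower against oxamate (-0.30 ± 0.10, edgeR adjusted p = 0.0491) and against vehicle (-0.52 ± 0.09, edgeR adjusted p = 0.000447). Acta2, a defining marker of myoid cells, was at 25.0 ± 2.01, 29.1 ± 8.76 and 27.9 ± 4.76 normalized counts. The part of these shifts in the values of Rnf151, Rnf148 and Rnf133 was not tested.

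Rnf212b, a gene of meiotic crossovers, was the germ cell member that was higher. Its normalized counts were 218, 193 and 216 with vehicle, 260.1, 216 and 187 with oxamate and 261, 301 and 301 with both compounds. The vehicle and octyl-L-2HG groups did not overlap, and oxamate library 4 stood apart from the other oxamate libraries. The log2 fold change against vehicle was 0.44 ± 0.12 (edgeR adjusted p = 0.01), and against oxamate 0.35 ± 0.12 (edgeR adjusted p = 0.0554). The first call was lost without vehicle library 2 (0.056), octyl-L-2HG library 8 (0.0526) or octyl-L-2HG library 9 (0.0596). Rnf212, its relative in crossover formation, was at 128 ± 21.5, 108 ± 17.2 and 129 ± 10.7 and was not called. Rnf32, the most abundant germ cell member by count, was at 18611, 19409.5 and 17953 with vehicle, 16794, 17055 and 16598 with oxamate and 18653, 18634 and 18556 with both compounds. Its oxamate libraries lay below all others, but neither step passed (edgeR adjusted p = 0.19 and 0.225). Rnf17, a Tudor domain gene needed for spermiogenesis, had log2 fold changes of -0.02, 0.05 and 0.04. Those of Rnf141, a gene linked to spermatogenesis, were -0.06, -0.01 and -0.08. The retrogenes Rnf113a2 and Rnf138rt1 had -0.08, 0.18 and 0.10, and -0.01, -0.16 and -0.18, and none of these 4 genes was called.

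**Figure D4:**
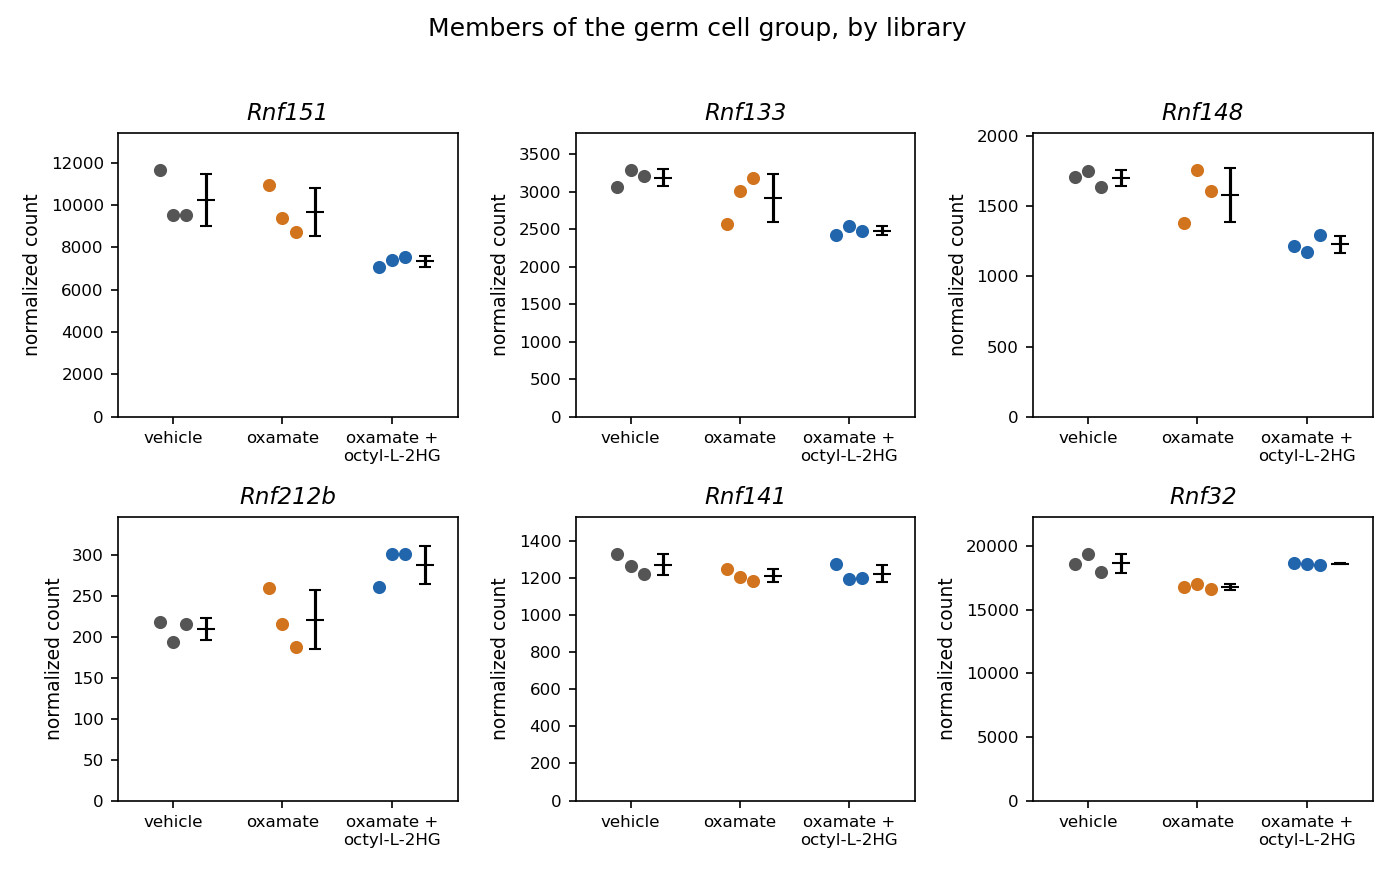
Normalized counts of 6 germ cell members in each library, with points for libraries and the bar beside them for mean and SD of 3 libraries. In Rnf151, Rnf133 and Rnf148 the points with both compounds lie below all others, with means of 7337, 2481 and 1228, and in Rnf32 the oxamate points are the lowest.

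Rnf220 was the member that rose with oxamate and fell again with octyl-L-2HG. RNF220 stabilizes β-catenin and patterns the neural tube. The normalized counts of Rnf220 were 9335, 8269.9 and 9471 with vehicle, 11737, 10549 and 10698 with oxamate and 9951, 9148 and 8891 with both compounds. Each oxamate library exceeded all 6 others, and the vehicle and octyl-L-2HG libraries overlapped. It rose by 0.29 ± 0.07 with oxamate (edgeR adjusted p = 0.015), or 1.22-fold, and the change with octyl-L-2HG against oxamate was -0.26 ± 0.07 (edgeR adjusted p = 0.0164). Against vehicle it was 0.03 ± 0.07 (edgeR adjusted p = 0.852). The rise lost its call without vehicle library 2 (0.121) and with only the 2 groups in the fit (0.0635), and the fall without octyl-L-2HG library 8 (0.0957) or octyl-L-2HG library 9 (0.0944). Exons of 2 genes on the opposite strand overlap Rnf220, and the strand setting of the counting is not given in the sources used here.

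Rnf216 and Rnf111 had a like order of group means, with a called rise and a second step that did not pass. Rnf216, an RBR ligase needed for male fertility in mice, was at 5885, 6050.3 and 6505 with vehicle, 6809, 7459 and 7479 with oxamate and 6535, 6448 and 6529 with both compounds. Each oxamate library exceeded the other 6. The change was 0.24 ± 0.06 with oxamate (edgeR adjusted p = 0.0272) and -0.18 ± 0.06 with octyl-L-2HG against oxamate (edgeR adjusted p = 0.0703). The call was lost without vehicle library 1 (0.108), vehicle library 2 (0.106), oxamate library 5 (0.127), oxamate library 6 (0.0897) or octyl-L-2HG library 8 (0.0587), and with only the 2 groups in the fit (0.103). Rnf111, or Arkadia, a ligase of SUMO-marked proteins that promotes TGF-β signalling, was at 638, 740.2 and 764 with vehicle, 860.2, 928 and 939 with oxamate and 884, 823 and 765 with both compounds. The vehicle libraries lay below the oxamate libraries, which overlapped with those of both compounds. The changes were 0.35 ± 0.08 (edgeR adjusted p = 0.0133) and -0.17 ± 0.08 (edgeR adjusted p = 0.227). The rise lost its call without vehicle library 1 (0.0787) or oxamate library 5 (0.0591), and with only the 2 groups in the fit (0.0508).

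Rnf43 and Rnf10 were higher with oxamate and stayed above vehicle with both compounds. Rnf43, which removes Frizzled receptors from the cell surface and so restrains Wnt signalling, was low, with normalized counts of 66.6, 65.4 and 76.9 with vehicle, 109, 105 and 96.5 with oxamate and 119, 87.6 and 90.8 with both compounds. All treated libraries exceeded the vehicle libraries. Its changes against vehicle were 0.58 ± 0.15 with oxamate (edgeR adjusted p = 0.0216) and 0.48 ± 0.15 with both compounds (edgeR adjusted p = 0.026). The first call was lost without vehicle library 1 (0.0699), vehicle library 2 (0.108) or oxamate library 5 (0.07), and the second without vehicle library 1 (0.0741), vehicle library 2 (0.0915) or octyl-L-2HG library 7 (0.179), and with total counts as the scaling (0.0517). Rnf10, which marks small ribosomal subunits in ribosome quality control, was at 14609, 13527 and 14579 with vehicle, 18171, 16202 and 15554 with oxamate and 17777, 17689 and 17782 with both compounds. It changed by 0.23 ± 0.07 with oxamate (edgeR adjusted p = 0.047) and by 0.30 ± 0.07 with both compounds against vehicle (edgeR adjusted p = 0.00301). The call with oxamate held without oxamate library 6 and was lost without vehicle library 1 (0.0661), vehicle library 2 (0.214), vehicle library 3 (0.117), oxamate library 4 (0.0736), oxamate library 5 (0.0883), octyl-L-2HG library 7 (0.0734), octyl-L-2HG library 8 (0.0884) or octyl-L-2HG library 9 (0.0772), while the call with both compounds held without any single library. The first was also lost with DESeq2's size factors as the scaling (0.0537), total counts as the scaling (0.0547) or only the 2 groups in the fit (0.148).

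**Figure D5:**
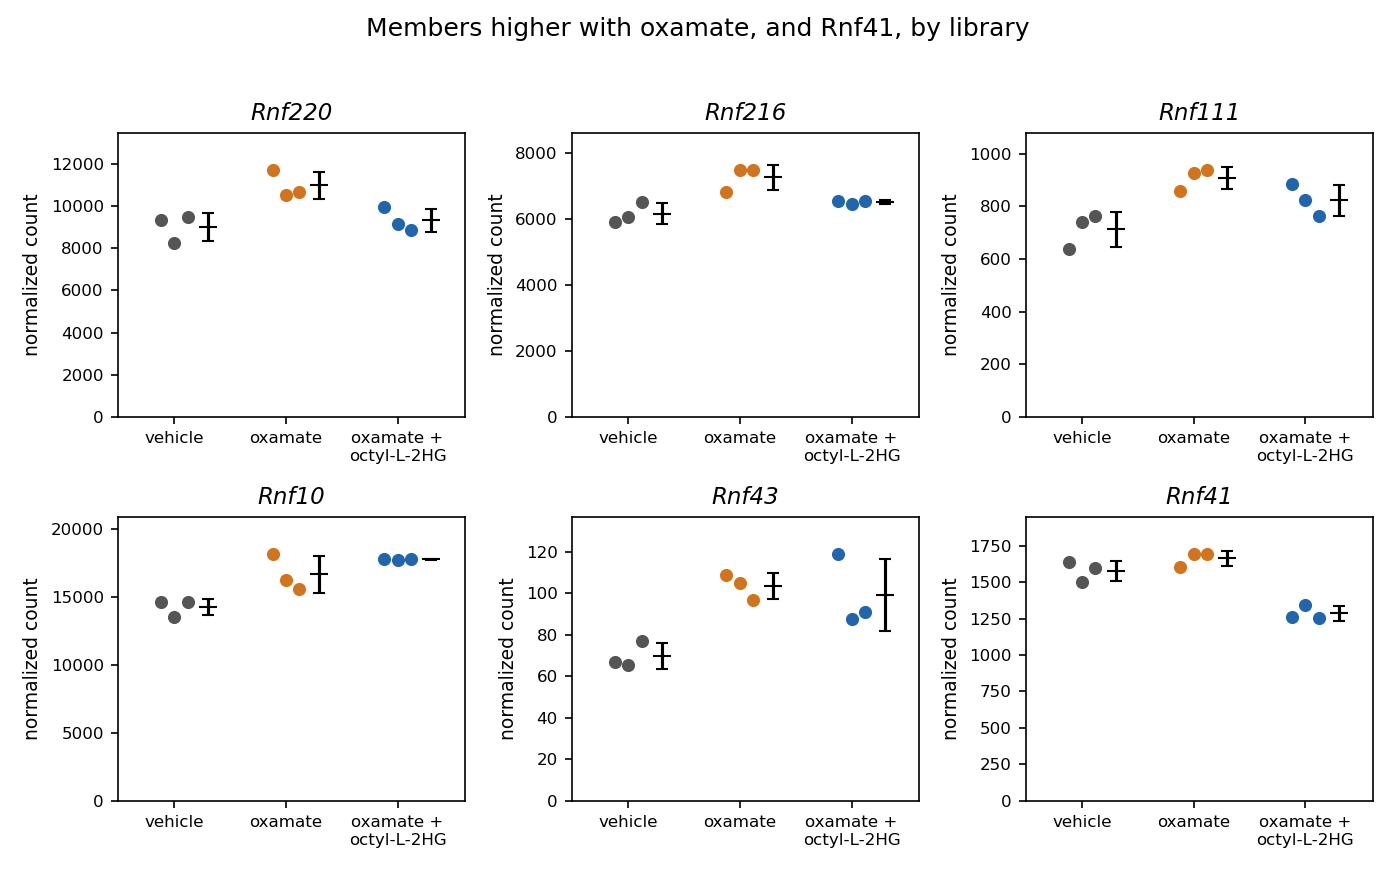
Normalized counts of Rnf220, Rnf216, Rnf111, Rnf10, Rnf43 and Rnf41 in each library, with points for libraries and the bar beside them for mean and SD of 3 libraries. In the first 5 genes every oxamate point lies above the vehicle points, and in Rnf41 the points with both compounds lie below all others.

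Rnf41 and Rnf4 fell with octyl-L-2HG from a level that oxamate had not changed beyond the threshold. Rnf41, or Nrdp1, which lowers ErbB3 receptors, was at 1637, 1504 and 1595 with vehicle, 1605, 1693 and 1696 with oxamate and 1258, 1343 and 1256 with both compounds. The libraries with both compounds lay below all others. The change was -0.40 ± 0.07 against oxamate (edgeR adjusted p = 0.000681) and -0.32 ± 0.07 against vehicle (edgeR adjusted p = 0.0023), with 0.08 ± 0.07 for oxamate (edgeR adjusted p = 0.61). Rnf4, a SUMO-targeted ubiquitin ligase of the nucleus, was at 5388, 5277 and 5221 with vehicle, 5326, 5025 and 5027 with oxamate and 4417, 4380.4 and 4347 with both compounds. Its 3 octyl-L-2HG libraries again lay lowest, and the change was -0.25 ± 0.06 against oxamate (edgeR adjusted p = 0.0104) and -0.30 ± 0.06 against vehicle (edgeR adjusted p = 0.00169). The first of these was lost without octyl-L-2HG library 8 (0.0616) and with no filter on low counts (0.054). Rnf41 kept both calls without any single library.

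Among the 8 tested members with roles in chromatin, DNA damage and splicing, Rnf111 was higher with oxamate, Rnf4 lower with octyl-L-2HG against oxamate, and Rnf40 higher and Rnf4 lower against vehicle. These are 12.5%, 12.5% and 25% of the list, beside 5.19%, 11.2% and 18.0% of all genes. The median log2 fold changes of these 8 were 0.05, 0.04 and 0.14. Rnf40 forms with Rnf20 the ligase of histone H2B. Rnf40 was at 13125, 11468 and 12709.6 with vehicle, 15572, 13326 and 13216 with oxamate and 17063, 16401 and 15585 with both compounds, so that each group lay above the one before it. Neither step passed alone (edgeR adjusted p = 0.187 and 0.0951), and the sum did, with 0.37 ± 0.07 (edgeR adjusted p = 0.00088). Its partner Rnf20 was far lower, with 73.6 ± 11.2, 81.8 ± 15.9 and 93.7 ± 9.27 normalized counts, and was not called. Per kb in vehicle, Rnf40 was at 2212 and Rnf20 at 10.1 normalized counts. Exons of 2 genes on the opposite strand overlap Rnf40. The other 5 members of this list were not called.

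Of 9 members with a protease-associated domain, Rnf43 was higher with oxamate, Rnf133 and Rnf148 lower with octyl-L-2HG against oxamate, and Rnf13 and Rnf43 higher and Rnf133 and Rnf148 lower against vehicle. These are 11.1%, 22.2% and 44.4% of the list, beside the same shares of all genes, and 2 of the 9, Rnf133 and Rnf148, are also in the germ cell list. The medians were 0.08, -0.04 and 0.23. Rnf13, a ligase of endosomes and lysosomes, was at 209, 249 and 222 with vehicle, 236, 286 and 285 with oxamate and 335, 282 and 312 with both compounds. Its octyl-L-2HG and vehicle libraries did not overlap, and the change against vehicle was 0.43 ± 0.11 (edgeR adjusted p = 0.00651). Without octyl-L-2HG library 7 the adjusted p was 0.0506. Of 15 other membrane-anchored members tested only Rnf5 was called, an ER ligase that removes misfolded proteins, which is 6.67% against vehicle beside 18.0% of all genes. It was at 156, 131 and 123 with vehicle, 111, 120.3 and 83.3 with oxamate and 96.6, 95.7 and 90.8 with both compounds, with the vehicle libraries above all others. Its change with both compounds against vehicle was -0.56 ± 0.14 (edgeR adjusted p = 0.00847), a call lost without vehicle library 1 (0.0514), and Rnf5 overlaps a gene on the opposite strand. The 15 had median log2 fold changes of 0.06, -0.04 and 0.10. Of 7 tested RBR members Rnf216 was called with oxamate, which is 14.3% beside 5.19% of all genes, and none in the other comparisons, with medians of 0.02, -0.06 and 0.06. Rnf19a, at 29839, 31767 and 32335 with vehicle, 28803, 31063 and 32065 with oxamate and 36472, 34668 and 35391 with both compounds, lay just outside the threshold, with 0.19 ± 0.06 against oxamate (edgeR adjusted p = 0.0502). Its octyl-L-2HG libraries exceeded all others.

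Another 25 members fell in none of these lists. Of these, 2 were higher with oxamate, 3 lower with octyl-L-2HG against oxamate, and 4 higher and 1 lower against vehicle. These are 8%, 12% and 20% of the 25, beside 5.19%, 11.2% and 18.0% of all genes. Rnf187, or RACO-1, a coactivator of AP-1, was at 6219, 5415 and 5581 with vehicle, 7549, 6698 and 6200.4 with oxamate and 7648, 7884 and 7794 with both compounds. Its libraries with both compounds exceeded all others, and the change against vehicle was 0.42 ± 0.08 (edgeR adjusted p = 0.000424), with 0.25 ± 0.08 for oxamate (edgeR adjusted p = 0.0539). Rnf44, Rnf115 and Rnf214, named here after their values were seen, were called once each. Rnf44 changed by -0.25 ± 0.08 with octyl-L-2HG against oxamate (edgeR adjusted p = 0.0462), and lost this call without vehicle library 3 (0.0778), oxamate library 5 (0.149), oxamate library 6 (0.0883), octyl-L-2HG library 8 (0.183) or octyl-L-2HG library 9 (0.214), and also with DESeq2's size factors as the scaling (0.0822), the filter of filterByExpr (0.0565), no filter on low counts (0.126), only the 2 groups in the fit (0.0763) or the test of DESeq2 (0.0638). Rnf115, a relative of Rnf126, changed by 0.36 ± 0.11 against vehicle (edgeR adjusted p = 0.0242), and the call was lost without vehicle library 1 (0.126), octyl-L-2HG library 7 (0.0818), octyl-L-2HG library 8 (0.0506) or octyl-L-2HG library 9 (0.0901), and with total counts as the scaling (0.0713). Rnf214 changed by 0.27 ± 0.08 against vehicle (edgeR adjusted p = 0.0161), and the call was lost without vehicle library 1 (0.081), octyl-L-2HG library 7 (0.105) or octyl-L-2HG library 8 (0.0841), and with total counts as the scaling (0.064).

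The enzymes before the ligases and other RING ligases were listed for comparison. Of 3 E1 genes, Uba1, which activates most of the ubiquitin of a cell, was lower with octyl-L-2HG against oxamate (-0.33 ± 0.07, edgeR adjusted p = 0.00479) and against vehicle (-0.22 ± 0.07, edgeR adjusted p = 0.0417). Of 29 E2 genes tested, 1 was higher with oxamate, 2 higher and 2 lower with octyl-L-2HG against oxamate, and 2 higher and 4 lower against vehicle. These are 3.45%, 13.8% and 20.7%, near the 5.19%, 11.2% and 18.0% of all genes. Ube2z was at 238 ± 18.0, 318 ± 24.0 and 387 ± 32.4 normalized counts and rose by 0.42 ± 0.10 with oxamate (edgeR adjusted p = 0.0138) and by 0.68 ± 0.10 with both compounds (edgeR adjusted p = 4.59e-05). Ube2o, the other E2 that was higher against vehicle, changed by 0.38 ± 0.08 (edgeR adjusted p = 0.00188). Ube2v2 fell by 0.46 on the log2 scale against oxamate (edgeR adjusted p = 0.00239) and Ube2t by 0.46 against vehicle (edgeR adjusted p = 0.0311).

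Of 33 RING ligases outside the series, 3 were higher with oxamate and none lower, none higher and 6 lower with octyl-L-2HG against oxamate, and 1 higher and 3 lower against vehicle. Znrf1 and Syvn1, an ER ligase, rose by 0.49 ± 0.08 (edgeR adjusted p = 0.000562) and 0.43 ± 0.12 (edgeR adjusted p = 0.0341) with oxamate. Siah1b, at 37.3 ± 4.90, 51.0 ± 0.875 and 33.1 ± 8.89 normalized counts, had the largest called fall against oxamate, -0.63 ± 0.20 (edgeR adjusted p = 0.0494), and the largest called fall against vehicle was that of Znrf4, a ligase of testis, at -0.50 ± 0.09 (edgeR adjusted p = 0.000631). Znrf4 was at 10491 ± 1572, 10089 ± 1414 and 7521 ± 167. The shares called in this list were 9.09%, 18.2% and 12.1% for the 3 comparisons, beside 8.11%, 10.8% and 23.0% of the Rnf members and 5.19%, 11.2% and 18.0% of all genes.

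Transcript length moved with the fold changes over all genes. Spearman's rho of log2 fold change and merged exon length was 0.1726, 0.1026 and 0.2089 over all tested genes with a length for the 3 comparisons. Over the 74 members it was 0.1267, -0.0180 and 0.0573. Where the average normalized count was 100 or more, it was 0.3122, 0.1709 and 0.3478 over 10697 genes, and 0.2557, -0.0448 and 0.1213 over 54 members. The correlations are across genes of the same libraries and are descriptions only. The 6 members higher with oxamate had a median exon length of 7369 bp, and all members of 4437 bp. Against vehicle with both compounds, the 6 lower members had a median of 1460 bp and the 11 higher members of 3356 bp, so both lay below that of all members. The 7 members lower against oxamate had a median of 4457 bp. With offsets corrected for length in each library, a fit chosen after the data were seen, 4 members were higher and 1 lower with oxamate. The split against vehicle became 9 higher and 11 lower. Rnf220, Rnf216 and Rnf10 lost their calls with oxamate in that fit, with adjusted p of 0.0745, 0.117 and 0.187. Rnf133 lost its call against oxamate (0.0771), and Rnf214 (0.121) and Rnf43 (0.0841) lost theirs with both compounds against vehicle. Rnf166 kept its 3 calls. Of the 74 members, 7 have exons that overlap another gene on the same strand and 23 on the opposite strand, so their counts can hold or lack reads of a neighbour.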

How the data were processed

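Libraries of polyA RNA, 3 per group, were made with a stranded kit from RS treated with vehicle, oxamate, or oxamate and octyl-L-2HG. The authors trimmed the reads (cutadapt 2.10), aligned them to GRCm39 (TopHat 2.1.1) and used HTSeq 2.01 to count reads on Ensembl genes. They deposited raw counts and a normalized signal, the count divided by the DESeq2 (1.36.0) size factor of the library. The labels also list a nematode build, WBcel235, and name another sequencing instrument than the methods. Of 55414 genes, 6250 have no values. Groups came from the labels.

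The 25128 genes with at least 10 summed counts entered the quasi-likelihood test of edgeR 4.0.16, run in R 4.3.3 (TMM, all 9 libraries in one robust fit, Benjamini-Hochberg adjustment over all genes, threshold 0.05). The test was checked on simulated counts. Level comparisons between genes used normalized counts per kb of merged exon length from GENCODE, matched by identifier for all 74 members and 99.6% of the genes in the test. Exon overlaps between genes came from the GENCODE exon coordinates on GRCm38, which is not the build of the counts. Promoter windows and their coordinates are RefSeq's on GRCm38.p6, which also differs from the build of the counts. Library totals ran from 32339533 to 39888396. The precision depended on these totals and on the spread between the libraries of a group.

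Members named in the text were those of the germ cell, RBR, protease-associated, membrane and chromatin lists called in any comparison, the 5 largest called rises and falls per comparison among members averaging 100 or more normalized counts, the 5 highest per kb in vehicle, and all germ cell members. Rnf125 and Rnf138, given as relatives of Rnf166, and Rnf20, given as the partner of Rnf40, did not meet this rule. The same holds for Rnf44, Rnf115 and Rnf214. Of other genes of the pathway, the 2 largest called rises and falls of each list were named. The members and lists were chosen with earlier results of these data known. Alternatives were DESeq2 1.42.0, other scalings, filters and thresholds, fits of only the 2 groups compared, each library left out in turn and, chosen after the data were seen, offsets corrected for transcript length. Protein features were not analysed here.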

Additional observations from a re-analysis of the deposited data

How the results depend on the processing

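No paired analysis was run, because the labels do not say which libraries of different groups, if any, came from the same cells. Of the called values of members, all kept their direction under all alternatives, and 78 of 496 recomputed values lost their call. Of 992 recomputed values not called in the first place, 48 became called and 52 changed sign without being called. The largest of the values that changed sign reached 0.14 in size on the log2 scale. Single values were recomputed only for members that were called or met the naming rule, not for all 74.

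The counts of called members were 6 for oxamate against vehicle, 8 for octyl-L-2HG with oxamate against oxamate, 17 for both compounds against vehicle and 18 for any difference. At an adjusted p under 0.01 they were 1, 4, 12 and 11, and at an unadjusted p under 0.05 they were 18, 20, 29 and 30 of the 74 members. Of all 25128 genes, 4348, 5934 and 7527 passed the unadjusted threshold in the pairwise comparisons, in the same order. The number of all genes passing it for any difference was not counted. With only the 2 groups compared in the fit, the count of called members was 2 for oxamate against vehicle and 27 for both compounds against vehicle, and the cause was not tested. With 1 library left out the ranges were 2 to 7, 4 to 15, 12 to 28 and 13 to 27. Shares of all genes were not counted at the 0.01 threshold or in the alternative fits. DESeq2's size factors, total counts, DESeq2, other filters on low counts and the length-corrected offsets left each count within 1.5 times, although not the split of directions: against vehicle it was 11 higher and 6 lower with TMM, 14 and 6 with DESeq2's size factors and 7 and 12 with total counts. With octyl-L-2HG against oxamate it was 1 and 7, 4 and 6, and 1 and 10. DESeq2's own test gave 5 and 6 there, and no filter on low counts 6 and 4.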
